A study of Homo sapiens with 12 samples.

Results

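The HOX cluster genes were taken from the rows of the count table whose symbol is HOX followed by A, B, C or D and a number. The 38 genes described here stand among 58735 gene identifiers, 10 in HOXA, 10 in HOXB, 9 in HOXC and 9 in HOXD. HOXC5 was listed under 2 identifiers, of which one, ENSG00000273046, is an unnamed non-coding gene in GENCODE 44 and held 3 counts in all 12 libraries together; it was set aside. A gene was tested where its mean was at least 5 raw counts over the 12 libraries, which 33 of the 38 met among 18415 genes of all kinds. The libraries came from SW872, an established human liposarcoma line, as poly(A)-selected RNA on a stranded kit. Each line stably expressed either TAZ-CAMTA1 (TC) or YAP-TFE3 (YT), gene fusions of epithelioid hemangioendothelioma in which the front of TAZ or YAP is joined to the back of CAMTA1 or TFE3. Each fusion line also carried a non-targeting hairpin (shNT), a hairpin against YEATS2 (shYEATS2) or a hairpin against ZZZ3 (shZZZ3), which both belong to ATAC, a complex that acetylates histones. The 6 groups (TC shNT, TC shYEATS2, TC shZZZ3, YT shNT, YT shYEATS2 and YT shZZZ3) had 2 libraries each. All of them carried a fusion, so a HOX level without a fusion was not analysed here, and a difference between TC and YT compares 2 pooled lines rather than a fusion with its absence. According to the study's methods, fusions were introduced by retrovirus and hairpins by lentivirus, with drug-selected pools rather than single clones. The study calls its SW872 libraries of this kind biological duplicates, but the labels tie neither library to a culture and do not say which hairpin of each target was used. The p-values measure the spread between these libraries.

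HOX genes encode homeodomain transcription factors that give cells their position along the body axis. Within each cluster the genes lie in the order in which they act, with low numbers (the 3′ end) used towards the head and high numbers (the 5′ end) used towards the tail and the ends of the limbs, and a cell keeps the pattern of its site of origin long after development. Genes of the same number in different clusters are paralogues. Polycomb complexes hold clusters silent and Trithorax/MLL complexes, which write histone H3 lysine 4 methylation, keep them active, retinoic acid and CDX factors open them from the 3′ end, and PBX, MEIS and PKNOX proteins (the TALE family) bind DNA beside HOX proteins. Several long non-coding RNAs are transcribed inside the clusters, among them HOTAIRM1, HOTTIP and HOTAIR.

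Of the 8 HOX genes called below in at least 1 contrast, HOXA13, HOXD13 and HOXD8 had a promoter entry in the RefSeq-derived table (GRCh38.p14). The other 5, HOXA5, HOXB7, HOXC8, HOXC10 and HOXC12, had no entry in that table. The 250 bases before each start are shown 5′ to 3′ on the gene's own strand, because the 3 genes moved in different contrasts and 2 of them carry letters that the fusions' partners are known to bind. Capitals mark GGAATG or its reverse complement CATTCC, the core that TEAD factors (the partners of YAP and TAZ) bind, and CACGTG, the palindromic E-box that TFE3-family proteins bind. The 2 motifs do not overlap in these windows.
HOXD13, chr2:176092471-176092720, plus strand: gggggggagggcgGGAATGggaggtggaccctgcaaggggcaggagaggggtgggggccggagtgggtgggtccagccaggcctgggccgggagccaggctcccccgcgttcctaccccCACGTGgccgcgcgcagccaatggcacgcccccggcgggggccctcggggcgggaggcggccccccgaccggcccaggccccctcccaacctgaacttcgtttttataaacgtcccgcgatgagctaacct
HOXD8, chr2:176129455-176129704, plus strand: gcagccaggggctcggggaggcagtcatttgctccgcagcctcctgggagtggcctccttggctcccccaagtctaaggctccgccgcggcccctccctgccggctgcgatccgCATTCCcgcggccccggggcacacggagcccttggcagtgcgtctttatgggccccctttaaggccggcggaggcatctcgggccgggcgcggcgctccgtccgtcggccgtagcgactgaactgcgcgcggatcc
HOXA13, chr7:27200092-27200341, minus strand: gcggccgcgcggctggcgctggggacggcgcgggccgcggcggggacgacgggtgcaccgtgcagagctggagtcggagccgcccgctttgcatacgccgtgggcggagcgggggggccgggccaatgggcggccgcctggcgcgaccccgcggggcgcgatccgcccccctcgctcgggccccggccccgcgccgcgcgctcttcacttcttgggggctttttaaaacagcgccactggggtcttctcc
HOXD13 held 1 TEAD core and 1 E-box, HOXD8 held 1 TEAD core, and HOXA13 held neither in this window. The TEAD core stood in 4175 of 35116 promoter windows of this length in the whole table (11.9%) and in 8 of the 27 windows of 20 HOX genes (HOXA3, HOXA10, HOXC4, HOXC5, HOXD4, HOXD8, HOXD10 and HOXD13). The E-box stood in 2228 windows of the table (6.34%) and in 8 HOX windows (HOXA3, HOXA4, HOXA9, HOXD1, HOXD3, HOXD10, HOXD11 and HOXD13). These are matches of letters only, and binding at them was not measured in these libraries.

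The libraries held 17451893 to 29294805 counts in genes. YEATS2 fell in TC shYEATS2 (113 and 123 CPM for TC shNT, 45.5 and 35.1 under the hairpin, log2 fold change -1.54, adjusted p = 0.0138 by edgeR's quasi-likelihood test with Benjamini-Hochberg adjustment) and in YT shYEATS2 (115 and 117 against 33.9 and 38.5, -1.68, 0.000104). ZZZ3 fell in YT shZZZ3 (71.2 and 49.1 against 12.6 and 29.6, -1.51, 0.0453), while in TC shZZZ3 it read 21.9 and 22.7 against 25.6 and 60.4 for TC shNT and missed the test (-0.94, adjusted p = 0.45). Each target was read under the other hairpin too. With shYEATS2 the log2 fold change of ZZZ3 was -0.95 in YT (adjusted p = 0.13) and -0.05 in TC. The YT value missed the test, though the libraries did not overlap. With shZZZ3 the values of YEATS2 were 0.15 in TC and 0.23 in YT, and neither passed. What part the ZZZ3 level had in the YT shYEATS2 results was not tested. The YEATS2 call in TC was lost without either YT shNT library (adjusted p 0.0533 and 0.0541) and with only its own groups fitted (0.15). The ZZZ3 call in YT was lost without any of 9 libraries, all but both TC shNT libraries and YT shZZZ3 replicate 2 (up to 0.296), with library totals (0.0864), at a mean of at least 50 counts (0.0596) and with only its own groups fitted (0.054), so the knock-down behind each shZZZ3 result below was measured with little certainty. The libraries of TC shNT and of YT shZZZ3 stood furthest apart within their groups, and their difference followed the GC content of the genes (r = 0.798 and 0.711 across 13232 genes, which are not independent). HOX genes were richer in GC than the tested genes in general (median 55.2% of exon bases against 48.4%). Median fold changes over all tested HOX genes are given with and without removal of the GC trend. Of the markers of the labelled line, all 9 mesenchymal genes were expressed, with a summed level of 6630 to 13400 CPM. The fat-cell markers FABP4 and ADIPOQ were at or near 0 and LPL and PPARG were present, so that the adipocytic list summed to 123 to 344 CPM. The leukocyte list summed to 1.36 to 4.85 CPM, the endothelial list to 110 to 382 CPM, and the epithelial list to 289 to 918 CPM, nearly all of it KRT8 and KRT18. Marker sums also moved with groups. The mesenchymal sum was 6630 to 8210 CPM in the 4 shZZZ3 libraries against 11100 to 13400 in the 4 shNT libraries. FN1 was the only mesenchymal marker called lower under shZZZ3 (log2 fold change -1.29, adjusted p = 0.0465, in TC and -1.63, 0.00461, in YT). In YT shZZZ3 VIM (1.37, 0.00416), CDH2 (1.04, 0.00703) and THY1 (1.48, 0.0325) rose, and 6 of the 9 markers had a positive value. The endothelial sum was 247 to 289 CPM for YT shZZZ3 against 136 to 145 for YT shNT. In YT shZZZ3 PECAM1 (log2 fold change 3.08, adjusted p = 0.00242) and CDH5 (1.93, 0.0121) rose, and 5 of the 6 endothelial markers had a positive value. The adipocytic marker CEBPA fell in YT shZZZ3 (-1.54, 0.0324), and the endothelial marker TEK fell in TC shZZZ3 (-1.47, 0.0426). For YT shYEATS2 the adipocytic sum was 160 to 168 CPM against 229 to 235 for YT shNT, the endothelial sum 110 to 118 against 136 to 145, and the leukocyte sum 4.41 to 4.85 against 1.84 to 2.06. Of the single markers there, CEBPA (log2 fold change -3.56), ERG (-3.33), ITGAM (-2.24), KRT8 (-1.82) and PDGFRB (-1.15) fell, and CDH2 (2.99), CD14 (2.30), VIM (1.47) and THY1 (1.42) rose, each with an adjusted p of 0.0427 or less. Their part in the HOX results was not tested.

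SW872 cells expressed genes of all 4 HOX clusters in every group. Levels of different genes are compared here as CPM per kilobase of merged exon (CPM/kb, a level, TMM-normalised), as a mean with the range over the 12 libraries. HOXB was read along nearly its whole length, and HOXB7 was the highest of the 38 genes (25.2 CPM/kb, 17.8 to 36.4), followed by HOXB9 (21.7, 15.3 to 34.6) and HOXB13, a 5′ gene known from prostate and hindgut (18.1, 12.7 to 26.4). The libraries' ranges of these 3 genes overlapped, so their order is not fixed. HOXA5 (11.7, 7.08 to 15.7), HOXC13 (10.8, 8.06 to 15.1) and HOXA7 (10.8, 8.56 to 13.4) came next, again with overlapping ranges. Paralogues of group 13 were thus present in all 4 clusters, HOXD13 at 3.82 CPM/kb (1.19 to 5.62) and HOXA13 at 1.75 (1.11 to 3.30).

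Expression did not run smoothly along the clusters. In HOXD the middle and the far 5′ end were expressed, HOXD8 at 4.62 CPM/kb (3.49 to 7.18), HOXD9 at 6.43 (3.82 to 7.87) and HOXD13 as above, while HOXD10, HOXD11 and HOXD12 between them were at 0 to 4 counts in every library. The 3′ genes HOXD1, HOXD3 and HOXD4 were low at 0.655, 0.397 and 0.768 CPM/kb. HOXB1, the 3′ end of HOXB, had 1 count in 1 library and 0 in the other 11, which allows up to 3 counts in each of those libraries. HOXA9 held 1 to 11 counts between well-expressed neighbours, HOXA7 and HOXA10. HOXC5 held 2 to 16 counts, with 67.3% of its exon bases shared on the same strand with ENSG00000273046 and with ENSG00000273049, an unnamed readthrough gene. Of HOXA9's exon bases 15.9% were shared on the same strand with MIR196B and with ENSG00000257184, another readthrough gene. Both readthrough genes held 0 counts in every library. Same-strand sharing was larger than that of HOXA9 for HOXA4 (31.3%), HOXD11 (21.4%), HOXD10 (18.2%), HOXC4 (17.5%), HOXB6 (16.6%) and HOXC6 (16.1%). HOXD10 and HOXD11 shared exon bases with each other. Other genes shared less, among them HOXC10 (7%). How reads in shared exons were counted is not given in the sources used here. The levels of all such genes, HOXA9 and HOXC5 among them, are therefore uncertain. On the opposite strand HOXA7 shared 62.5% of its exon bases with HOXA-AS3 and HOXD1 shared 60.1% with HAGLR and another gene. The kit marks strand, but the strand setting of the counting is not given in the sources used here.

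**Figure D1:**
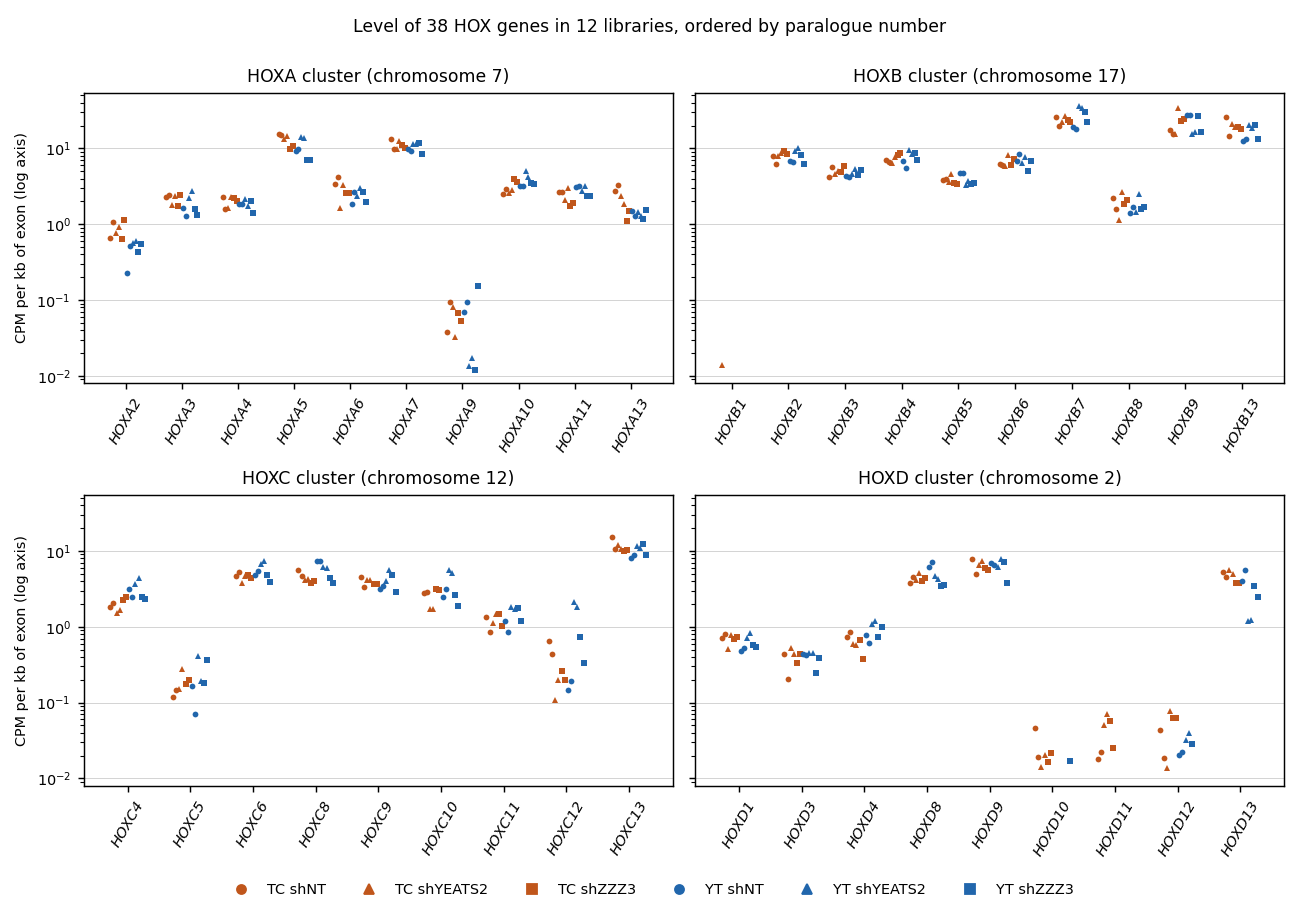
Level of each of the 38 HOX genes in CPM per kilobase of exon (log axis) in the 12 libraries, by cluster and paralogue number. Orange marks TC and blue YT, circles shNT, triangles shYEATS2 and squares shZZZ3, and values of 0 are not drawn. HOXB7, HOXB9 and HOXB13 stand highest, and HOXA9, HOXB1, HOXD10, HOXD11 and HOXD12 stand far below their neighbours.

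Summed over a cluster, the highest of the 12 libraries stood above the lowest by 1.52-fold for HOXA, 1.41-fold for HOXB, 1.72-fold for HOXC and 1.84-fold for HOXD. The HOXA sum over the 10 genes ran from 71.9 to 109 CPM, with 109 and 106 for TC shNT, 80.7 and 79.7 for YT shNT and 81.1 and 71.9 for YT shZZZ3. The HOXB sum ran from 213 to 299 CPM, lowest and highest in libraries of TC shNT (213) and TC shYEATS2 (299), whose other libraries read 260 and 229. The HOXC sum stood apart in YT shYEATS2, at 109 and 111 CPM against 64.7 to 91.5 in the other 10 libraries. The HOXD sum was 42.5 and 48.0 CPM for YT shNT, above 31.0 and 33.5 for YT shYEATS2 and 33.7 and 26.1 for YT shZZZ3, while the 6 TC libraries read 34.5 to 43.5. These sums are descriptions without a test.

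Across the 7 contrasts 8 of the 33 tested HOX genes passed an adjusted p of 0.05 at least once (24.2%), against 26.6% of all tested genes, so that HOX genes were called about as often as genes at large. The test of any difference among the 6 groups called 7 HOX genes (HOXA5, HOXA13, HOXC4, HOXC8, HOXC10, HOXC12 and HOXD13) where 20.9% of all genes were called. The knock-downs asked whether HOX genes of either fusion line depend on the 2 ATAC subunits. In TC shYEATS2 no HOX gene was called by edgeR or by DESeq2, 2 had an unadjusted p under 0.05, and 0.0434% of all genes were called. In TC shZZZ3 only HOXA13 was called, lower, where 1.53% of all genes were called (0.934% higher and 0.592% lower). In YT shYEATS2 4 HOX genes rose (HOXA5, HOXB7, HOXC10 and HOXC12) and HOXD13 fell, where 20.7% of all genes were called (9.61% higher and 11.1% lower). In YT shZZZ3 HOXC12 rose and HOXC8 and HOXD8 fell, where 10% of all genes were called (4.4% higher and 5.62% lower). Between the lines under the control hairpin HOXA5, HOXA13 and HOXC12 were lower in YT, where 9.23% of all genes were called (5.58% higher and 3.65% lower in YT). The effect of shYEATS2 differed between the lines for HOXC10, HOXC12 and HOXD13, where 9.37% of all genes were called, and that of shZZZ3 for HOXC12, where 4.32% were called. Fitted only on the groups of the contrast, the counts became 17 in YT shYEATS2, where that fit called 47.3% of all genes, and 0 in YT shZZZ3 (7.57% of all genes), between the lines (5.11%) and in TC shZZZ3 (0.853%).

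Beneath the calls, HOX genes leaned upward in YT shYEATS2. The log2 fold change was positive in 25 of 33 HOX genes with a median of 0.44, beside a median of -0.01 over all tested genes, and with the GC trend removed it was positive in 22 with a median of 0.29. In YT shZZZ3 17 were positive and 16 negative with a median of 0.03, in TC shYEATS2 14 were positive (median -0.03) and in TC shZZZ3 16 (median -0.08). These became 14 positive (median -0.03), 14 (-0.05) and 13 (-0.1) with the GC trend removed. Between the lines 22 of 33 were lower in YT with a median of -0.12, and with the GC trend removed the median was 0.02.

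**Figure D2:**
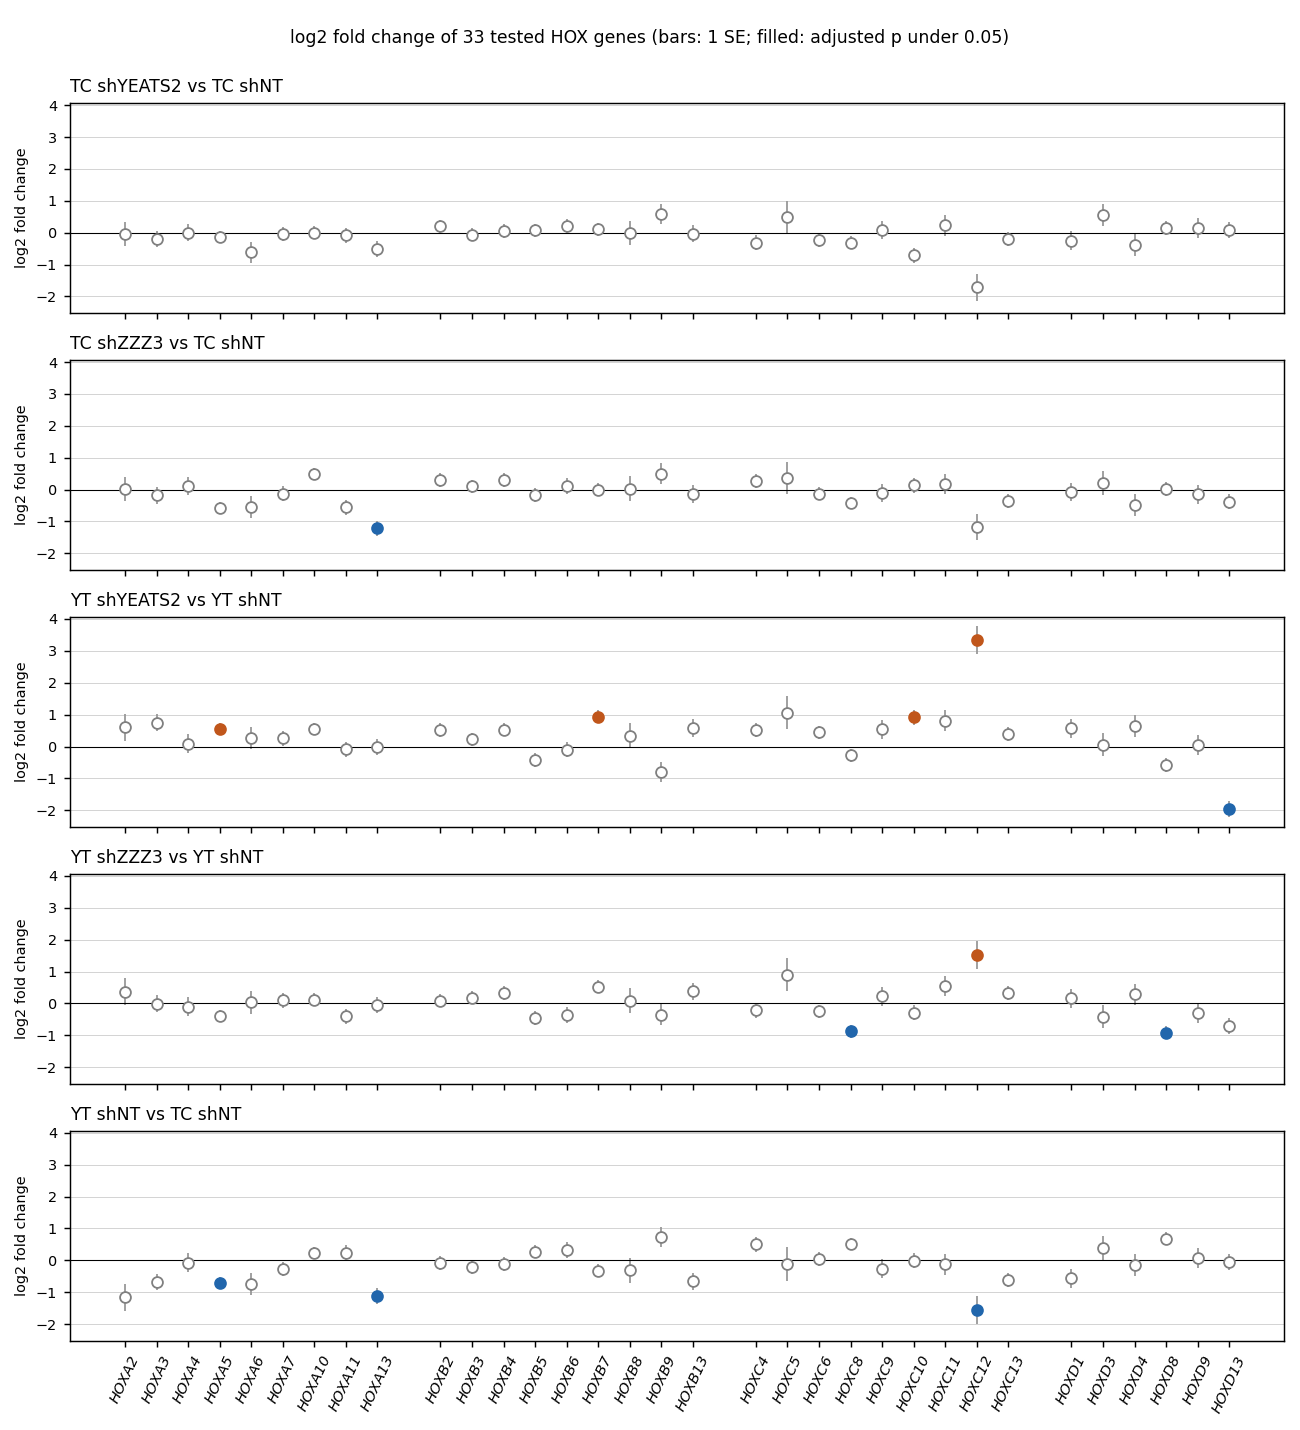
Log2 fold change (fitted difference, with 1 SE as bars) of the 33 tested HOX genes in 5 contrasts, in cluster order A to D and by paralogue number within a cluster. Filled points passed an adjusted p of 0.05, orange higher and blue lower. HOXC12 at 3.34 and HOXD13 at -1.96 for YT shYEATS2 lie furthest from 0.

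In the HOXA cluster 2 of 9 tested genes were called, 1 at the 5′ end and 1 in the middle. HOXA13, the 5′ gene that patterns the hand, foot and genital bud, was highest in the TC control. It read 14 and 16.7 CPM for TC shNT, 11.9 and 9.44 for TC shYEATS2 and 5.60 and 7.48 for TC shZZZ3, and 5.90 to 7.74 in all 6 YT libraries. TC shZZZ3 thus overlapped the YT line and lay below TC shNT without overlap. It fell 2.34-fold in TC shZZZ3 (log2 fold change -1.22, SE 0.25, adjusted p = 0.0332) and was 2.16-fold lower in YT than in TC under shNT (-1.11, SE 0.25, adjusted p = 0.0174). The first call was lost with library totals (0.0614), when only its groups were fitted (0.128), and without any library of TC shNT, TC shZZZ3, YT shNT or YT shYEATS2 (0.0623 to 0.424). The second was lost when only its groups were fitted (0.0626) and without either YT shNT library (0.106 and 0.16).

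HOXA5, a mid-cluster gene known from lung and fat tissue, moved between the groups in smaller steps. It read 26.9 and 25.8 CPM for TC shNT, 15.7 and 16.7 for YT shNT and 24.3 and 23.6 for YT shYEATS2. It read 12.3 and 12.2 CPM for YT shZZZ3, 22.6 and 25.2 for TC shYEATS2 and 16.9 and 18.5 for TC shZZZ3. YT shYEATS2 therefore stood near TC shYEATS2, and YT shZZZ3 was lowest of all groups. In both lines the shZZZ3 libraries lay below the shNT libraries without overlap, and neither difference passed. The gene was 1.63-fold lower in YT than in TC under shNT (log2 fold change -0.70, SE 0.182, adjusted p = 0.0339) and rose 1.48-fold in YT shYEATS2 (0.56, SE 0.182, adjusted p = 0.048). Both calls were lost without any library of TC shZZZ3, YT shNT or YT shYEATS2, the first also without TC shNT replicate 1 (0.0543 to 0.218 for the first, 0.086 to 0.25 for the second), and with no filter on low counts (0.0763 and 0.177). The first was also lost with only its own groups fitted (0.185) and the second with library totals (0.0701). The other 7 tested HOXA genes (HOXA2, HOXA3, HOXA4, HOXA6, HOXA7, HOXA10 and HOXA11) passed in no contrast, with log2 fold changes from -0.62 to 0.75 in the 4 knock-downs.

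In the HOXB cluster, which held the highest levels, 1 of 9 tested genes was called. HOXB7, a mid-cluster gene often raised in tumours, read 28.9 and 27.1 CPM for YT shNT and 55.3 and 52.2 for YT shYEATS2. It read 46.6 and 34.1 CPM for YT shZZZ3, and 30.2 to 40.7 in the 6 TC libraries. The YT shYEATS2 libraries were above the other 10 without overlap and the YT shNT libraries below them. HOXB7 rose 1.92-fold in YT shYEATS2 (log2 fold change 0.94, SE 0.212, adjusted p = 0.00973), and its difference between the lines for shYEATS2 missed the test (0.83, adjusted p = 0.111). The call was lost without either YT shNT library or YT shYEATS2 replicate 1 (0.0595 to 0.0756). HOXB9, the next gene along, went the other way without passing in YT shYEATS2 (70.9 and 72.1 CPM for YT shNT, 39.6 and 42.5 under the hairpin, -0.80, adjusted p = 0.101), and its 2 TC shYEATS2 libraries read 40.2 and 89.5 CPM. HOXB13 read 80.2 and 44.6 CPM for TC shNT and 38.6 and 40.4 for YT shNT (-0.66, adjusted p = 0.163).

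In the HOXC cluster the 5′ gene HOXC12, known from hair follicles, moved most of all HOX genes. It was low under the control hairpin, at 2.14 and 1.43 CPM for TC shNT and 0.475 and 0.633 for YT shNT. It reached 6.87 and 5.88 CPM for YT shYEATS2 (165 and 114 counts) and 2.37 and 1.1 for YT shZZZ3. In TC the order was turned, with 0.352 and 0.653 CPM for TC shYEATS2 and 0.853 and 0.641 for TC shZZZ3, below both TC shNT libraries. The rise in YT shYEATS2 was 10.1-fold (log2 fold change 3.34, SE 0.425, adjusted p = 0.000348) and in YT shZZZ3 2.86-fold (1.52, SE 0.427, adjusted p = 0.0453). With 9 and 11 counts in YT shNT, the sizes of these folds depend in part on the prior count of the fit. In TC the log2 fold changes were -1.71 (adjusted p = 0.258) and -1.16 (0.266) and missed the test. The 2 lines differed in the effect of shYEATS2 (5.04, SE 0.598, adjusted p = 0.000472) and of shZZZ3 (2.68, SE 0.589, adjusted p = 0.0265), and in the level under shNT (-1.56, SE 0.429, adjusted p = 0.0443). The shYEATS2 calls held in every alternative that kept the gene, which had a mean of 44.3 counts and was not tested at a mean of at least 50.

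The shZZZ3 calls of HOXC12 rested on single libraries. Without YT shZZZ3 replicate 1 its log2 fold change in YT shZZZ3 was 0.93 (adjusted p = 0.264), and the call was also lost without any library of TC shZZZ3, YT shNT or YT shYEATS2 (0.069 to 0.264) and with only the groups of the contrast fitted (0.093). The difference between the lines for shZZZ3 was lost without those libraries or TC shNT replicate 1 (0.0505 to 0.12), and the difference under shNT without TC shNT replicate 1 or any library of TC shZZZ3, YT shNT or YT shYEATS2 (0.0659 to 0.256) and with only its groups fitted (0.0591).

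HOXC10, a hindlimb gene that also marks lower-body fat, rose in YT shYEATS2 as well. It read 5.81 and 7.48 CPM for YT shNT and 13.2 and 12 for YT shYEATS2, and 6.30 and 4.48 for YT shZZZ3. In TC it read 6.52 and 6.83 CPM under shNT, 4.05 and 4.07 under shYEATS2 and 7.43 and 7.27 under shZZZ3. The YEATS2 hairpin thus stood above its control in YT and below it in TC. The rise in YT was 1.88-fold (log2 fold change 0.91, SE 0.237, adjusted p = 0.0191), the value in TC was -0.71 (adjusted p = 0.638), and the difference between the lines passed (1.62, SE 0.338, adjusted p = 0.0114). The rise was lost without any library of YT shNT or YT shYEATS2 (0.0505 to 0.171), and the difference without replicate 1 of either group (0.0503 and 0.0629).

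HOXC8, a trunk-level gene that lies 3′ of these, fell in the other YT knock-down. It read 17.8 and 18 CPM for YT shNT, 14.9 and 14.6 for YT shYEATS2 and 10.5 and 9.05 for YT shZZZ3. The 6 TC libraries read 9.01 to 13.6 CPM, below both YT shNT libraries. The fall in YT shZZZ3 was 1.82-fold (log2 fold change -0.87, SE 0.200, adjusted p = 0.0189), and the difference between the lines for shZZZ3 missed the test (-0.45, adjusted p = 0.488). The call was lost without any library of YT shNT or YT shZZZ3 (0.0597 to 0.135), with no filter (0.059) and with only its groups fitted (0.073). HOXC4 passed only the test over all 6 groups (adjusted p = 0.0125), with 4.19 to 6.79 CPM in TC, 6.43 to 8.66 for YT shNT and YT shZZZ3, and 10.2 and 12 for YT shYEATS2. All 9 HOXC genes had a positive value for the difference between the lines in the effect of shYEATS2, with the GC trend left in. Their median was 0.59, beside -0.01 over all genes, and HOXC10 and HOXC12 passed. This lean was not particular to HOXC. In HOXA 8 of 9 tested genes were positive with a median of 0.543, and of all 33 tested HOX genes 25 were positive (median 0.5). With the GC trend removed 23 of the 33 were positive, with a median of 0.34.

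In the HOXD cluster the 5′ gene HOXD13, which shapes the digits, fell in YT shYEATS2. It read 9.61 and 13.6 CPM for YT shNT and 2.87 and 2.94 for YT shYEATS2, with 8.22 and 5.96 for YT shZZZ3. All 6 TC libraries read 9.14 to 13.4 CPM, so that the 2 YT shYEATS2 libraries were the lowest of the 12. The fall was 3.90-fold (log2 fold change -1.96, SE 0.259, adjusted p = 0.000398), and the effect of shYEATS2 differed between the lines (-2.04, SE 0.351, adjusted p = 0.00386). Both calls held in every alternative run. In YT shZZZ3 the value was -0.70 (adjusted p = 0.0993), and the difference between the lines for shZZZ3 was -0.32 (0.734). HOXD8, a mid-cluster trunk gene, read 16.3 and 18.9 CPM for YT shNT, 12.2 and 11.3 for YT shYEATS2 and 9.17 and 9.39 for YT shZZZ3, beside 10 to 13.4 in TC. It fell 1.89-fold in YT shZZZ3 (-0.92, SE 0.211, adjusted p = 0.0188), and missed the test in YT shYEATS2 (-0.58, 0.0726). That call was lost without any library of YT shNT or YT shZZZ3 (0.0579 to 0.18) and with only its groups fitted (0.0608). HOXD1, HOXD3, HOXD4 and HOXD9 passed in no contrast.

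**Figure D3:**
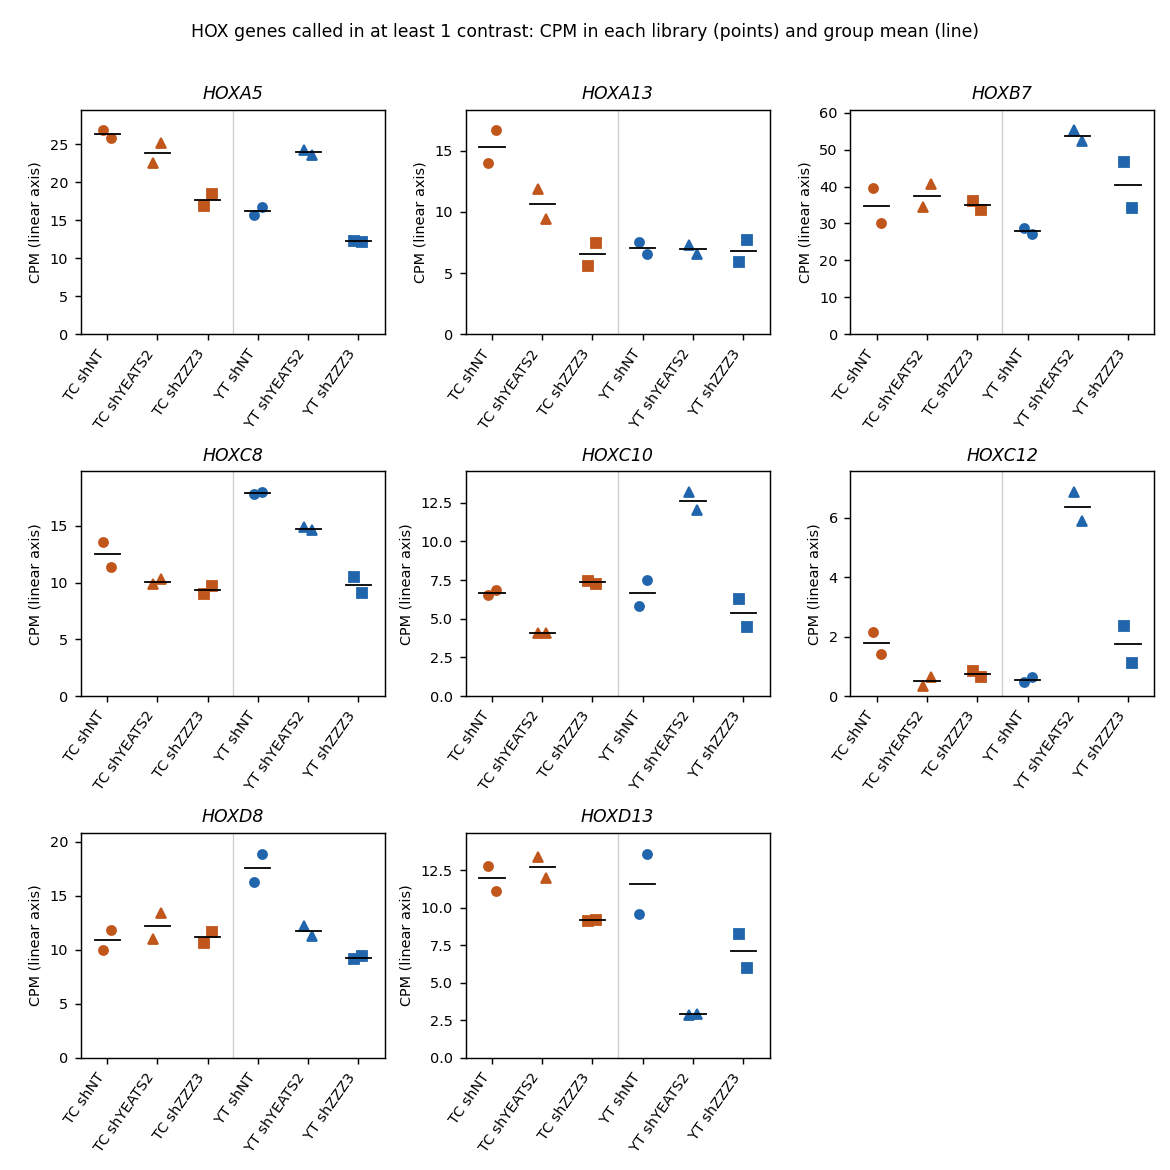
CPM (linear axes from 0) of the 8 HOX genes called in at least 1 contrast, in each of the 12 libraries (points) with the mean of the 2 libraries of each group (line). HOXC12 stands high and HOXD13 low in YT shYEATS2 alone, and HOXA13 high in TC shNT and TC shYEATS2.

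Paralogues share a number across clusters, and no 2 tested genes of one number were both called in YT shYEATS2. Of group 13, HOXD13 fell, while HOXA13 (log2 fold change -0.02), HOXB13 (0.58) and HOXC13 (0.40) did not pass. Of group 10, HOXC10 rose and HOXA10 (0.55, adjusted p = 0.076) did not pass. Of group 12, HOXC12 rose while HOXD12 stayed at 0 to 4 counts and was too low to test. Of group 5, HOXA5 rose and HOXB5 and HOXC5 did not pass, and of group 7, HOXB7 rose and HOXA7 did not pass. How many such pairs to expect among so few called genes was not tested.

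Long non-coding and antisense genes inside the clusters were listed too, 18 in all, of which 11 were tested. In YT shYEATS2 1 rose and 2 fell, in YT shZZZ3 3 fell, in TC shZZZ3 1 fell, and between the lines 1 was lower in YT. These made up 27.3%, 27.3%, 9.09% and 9.09% of the tested list, beside 20.7%, 10%, 1.53% and 9.23% of all genes. HOTAIRM1, a non-coding RNA of the HOXA cluster known from myeloid cells, fell in both YT knock-downs. It read 17.4 and 17.8 CPM for YT shNT, 6.37 and 9.75 for YT shYEATS2 and 5.17 and 9.81 for YT shZZZ3, falls of 2.18-fold (log2 fold change -1.12, SE 0.317, adjusted p = 0.0282) and 2.34-fold (-1.23, SE 0.316, 0.0316). Leaving out any library of YT shNT or YT shYEATS2 ended both calls (up to 0.226), and the second also ended without either TC shZZZ3 library or YT shZZZ3 replicate 1, with library totals (0.0612) and with only its groups fitted (0.0601). HOTAIR, the RNA between HOXC11 and HOXC12 that is known as a Polycomb-binding transcript, fell in the same groups in which HOXC12 rose. It read 7.13 and 8.05 CPM for YT shNT, 3.70 and 4.39 for YT shYEATS2 and 2.95 and 4.19 for YT shZZZ3 (-0.89, SE 0.268, adjusted p = 0.0358, and -1.07, SE 0.268, 0.0271). Both calls were lost without any library of YT shNT or YT shYEATS2, the first also without either TC shZZZ3 library and the second without YT shZZZ3 replicate 1 (up to 0.212), and both with library totals (0.0525 and 0.0546). The second was also lost with only its groups fitted (0.0676). HOXC13-AS, beside HOXC13, fell in YT shZZZ3 alone (4.12 and 4.49 CPM against 2.22 and 1.65, -1.11, SE 0.287, 0.031), a call lost without any library of TC shZZZ3 or of the 3 YT groups (up to 0.183) and with only its groups fitted (0.0667).

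Outside the HOX genes themselves, EVX1 and HOXA-AS3 were the listed genes at HOXA called in TC shZZZ3. SNX10 (log2 fold change -0.09) and SKAP2 (-0.12), on the 3′ side of the cluster, did not pass there. HIBADH, the remaining listed neighbour of HOXA, did not pass there either (-0.3, adjusted p = 0.617). EVX1, a homeobox gene just beyond HOXA13, read 3.17 and 2.10 CPM for TC shNT, 0.528 and 0.428 for TC shZZZ3 and 0.370 and 0.230 for YT shNT. It fell 4.79-fold in TC shZZZ3 (log2 fold change -2.26, SE 0.401, adjusted p = 0.0173) and was lower in YT shNT (-2.81, SE 0.431, 0.00231). It rose in YT shYEATS2, to 0.874 and 1.08 CPM (1.44, SE 0.447, 0.0411). HOTTIP, transcribed between HOXA13 and EVX1, passed in no contrast and is named after its values were seen. It read 1.45 and 0.908 CPM for TC shNT and 0.158 and 0.288 for YT shNT (-2.04, adjusted p = 0.0511). Its value in TC shZZZ3 was -1.16 (0.46). At such low levels the fold changes of EVX1 and HOTTIP depend on the prior count of the fit. HOXA-AS3, which overlaps exons of HOXA3, HOXA4, HOXA6 and HOXA7 on the opposite strand, read 4.69 and 3.49 CPM for TC shNT, 1.30 and 1.18 for TC shZZZ3, 0.739 and 0.403 for YT shNT and 1.58 and 1.39 for YT shYEATS2. It fell 3.15-fold in TC shZZZ3 (-1.66, SE 0.322, 0.0268), was 6.31-fold lower in YT shNT (-2.66, SE 0.353, 0.000989) and rose 2.38-fold in YT shYEATS2 (1.25, SE 0.362, 0.0309). Of these, the EVX1 and HOXA-AS3 differences between the lines held without any single library. The TC shZZZ3 calls of both were lost without TC shNT replicate 1 or either TC shZZZ3 library, that of HOXA-AS3 also without either YT shYEATS2 library (up to 0.275) and with only its groups fitted (0.0584), and the YT shYEATS2 calls without any library of YT shNT or YT shYEATS2, that of EVX1 also without either TC shZZZ3 library (up to 0.202).

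Of 18 listed neighbours outside the clusters 16 were tested, with 3 higher and 1 lower in YT shYEATS2, 1 higher in YT shZZZ3, 1 lower in TC shZZZ3 and 2 lower in YT than in TC under shNT. These were 25%, 6.25%, 6.25% and 12.5% of the tested neighbours, beside 20.7%, 10%, 1.53% and 9.23% of all genes. SNX10, an endosomal sorting nexin on the 3′ side of HOXA, read 27.6 and 13.9 CPM for YT shNT and 4.41 and 4.44 for YT shYEATS2 (log2 fold change -2.21, SE 0.413, adjusted p = 0.00356), and this call held without any single library. PRAC2, next to HOXB13, rose from 0.845 and 0.920 CPM for YT shNT to 2.33 and 2.37 for YT shYEATS2 (1.33, SE 0.394, 0.0345), a call lost without any library of those groups or of TC shZZZ3 (up to 0.174). HNRNPA1, a splicing factor gene beside HOXC, read 499 and 499 CPM for YT shNT and 953 and 946 for YT shZZZ3 (0.93, SE 0.165, 0.00514), and 824 to 963 in TC. CALCOCO1, on the HOXC13 side of HOXC, rose in YT shYEATS2 (0.58, SE 0.182, 0.0422). The HNRNPA1 call was lost without either YT shNT library (0.0581 and 0.0586), and that of CALCOCO1 without any library of TC shZZZ3, YT shNT or YT shYEATS2 (up to 0.175) and with no filter on low counts (0.0612).

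**Figure D4:**
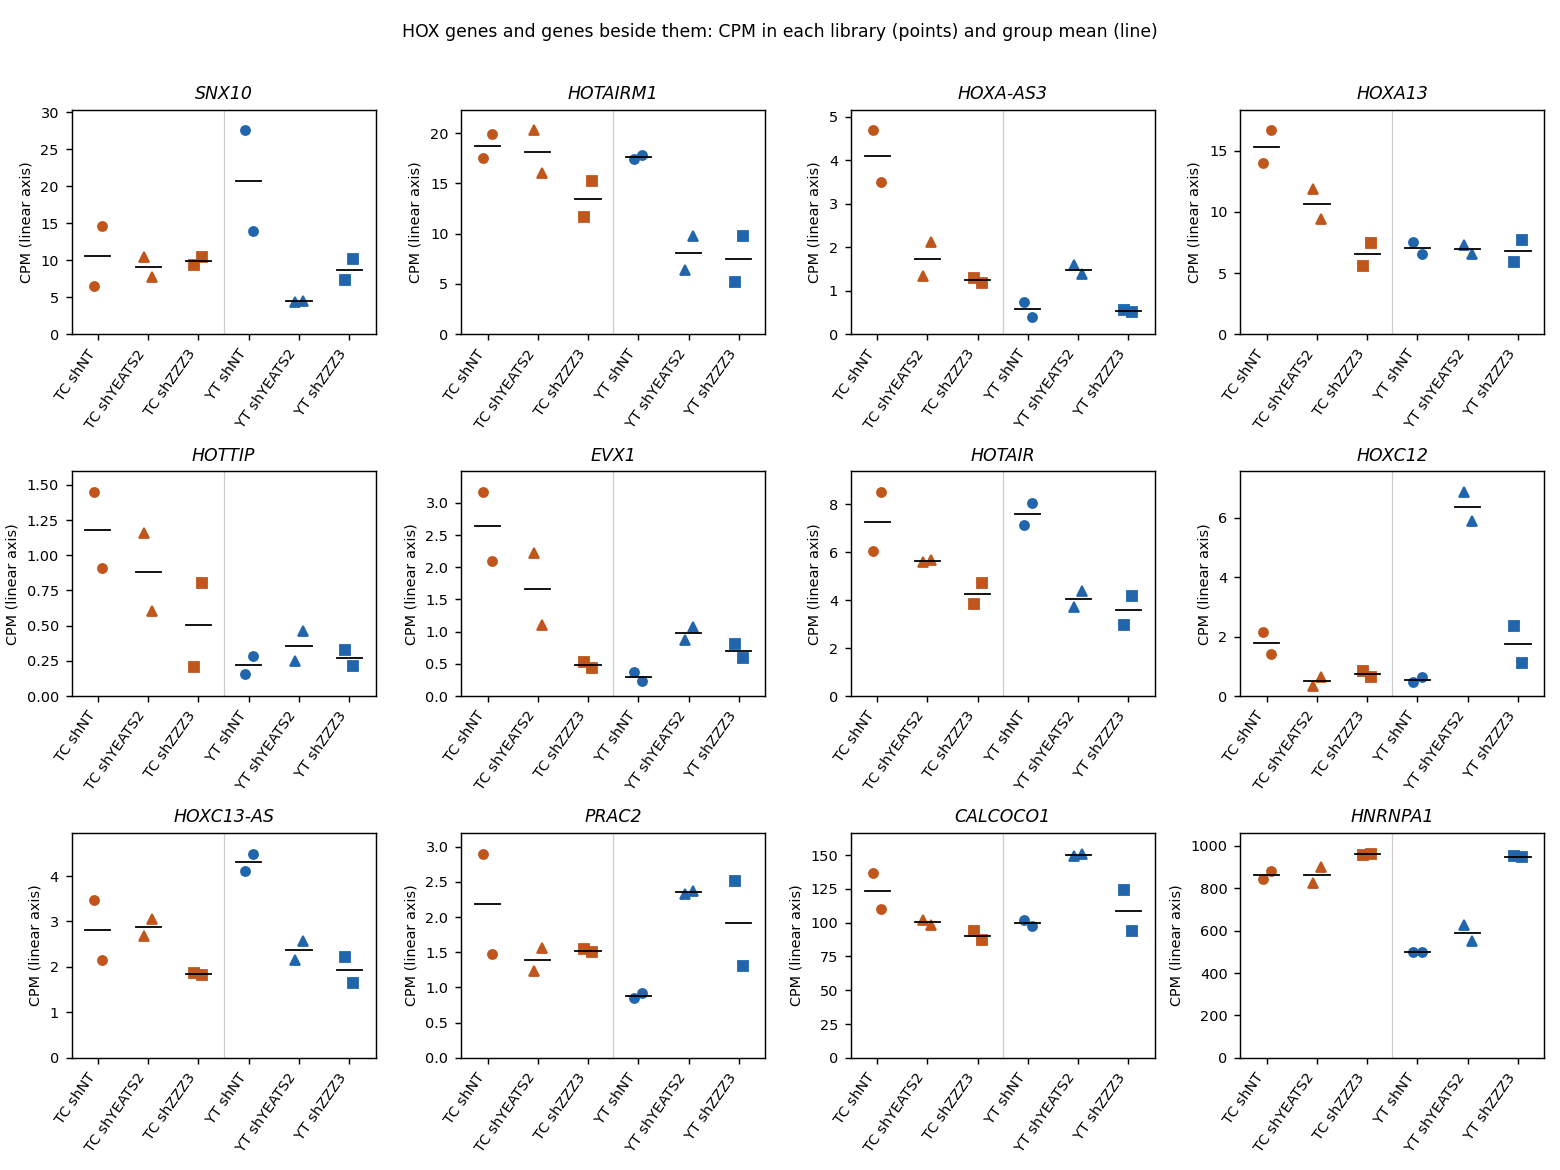
CPM (linear axes from 0) of HOXA13, HOXC12 and 10 non-coding or neighbouring genes in each of the 12 libraries (points) with the mean of the 2 libraries of each group (line). HOTAIRM1 and HOTAIR stand lower in both YT knock-downs than in YT shNT, while HOXC12 stands higher.

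The genes of the proteins that work with or on HOX clusters moved in part. Of the 9 TALE cofactor genes, all tested, PBX3 and PKNOX2 were lower in YT than in TC under shNT and PKNOX2 rose in YT shYEATS2, and none was called in the other 3 knock-downs by edgeR or DESeq2 (unadjusted p under 0.05 in 0 for TC shYEATS2, 2 for TC shZZZ3 and 0 for YT shZZZ3). The calls were 22.2% of the list between the lines and 11.1% in YT shYEATS2, beside 9.23% and 20.7% of all genes. PBX3, which pairs with HOXA proteins in leukaemia, read 19.4 and 25.3 CPM for TC shNT and 10 and 12.6 for YT shNT (log2 fold change -0.98, SE 0.228, adjusted p = 0.0212). PKNOX2 read 14.7 and 11.5 CPM for TC shNT, 2.96 and 3.28 for YT shNT and 7.12 and 6.92 for YT shYEATS2 (-2.04, SE 0.370, 0.00595, between the lines and 1.15, SE 0.368, 0.0468, under the hairpin). The PBX3 call was lost without TC shNT replicate 2 or either YT shNT library (up to 0.199) and with only its groups fitted (0.105), the PKNOX2 call between the lines without either YT shNT library (0.0577 and 0.0718), and its rise without any library of TC shZZZ3, YT shNT or YT shYEATS2 (up to 0.219). That rise was also lost with library totals (0.0574), at a mean of at least 50 counts (0.053) and with the GC trend removed (0.0718).

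Of the 27 Polycomb genes, all tested, 5 rose and 0 fell in YT shYEATS2 and 3 rose and 0 fell in YT shZZZ3, while 2 were lower in YT under shNT and 0 passed in the TC knock-downs by edgeR or DESeq2 (unadjusted p under 0.05 in 0 for shYEATS2 and 1 for shZZZ3). The 5 made up 18.5% of the list, beside 20.7% of all genes called (9.61% higher and 11.1% lower). The 3 made up 11.1%, beside 10% of all genes (4.4% higher and 5.62% lower). The 2 made up 7.41%, beside 9.23% of all genes (5.58% higher and 3.65% lower in YT). In YT shYEATS2 9 of the 27 had a negative value, and a lean of the list in 1 direction was not tested. PHF19, which brings Polycomb repressive complex 2 to methylated lysine 36 of histone H3, read 35.7 and 33.1 CPM for YT shNT, 74.8 and 70.3 for YT shYEATS2 and 110 and 76.2 for YT shZZZ3, beside 71.4 to 132 in TC. It rose in both (1.07, SE 0.251, adjusted p = 0.0119, and 1.43, SE 0.253, 0.00521) and was lower in YT than in TC under shNT (-1.34, SE 0.252, 0.00739). PCGF3, a subunit of a variant Polycomb repressive complex 1, rose from 32.1 and 33.2 CPM to 65.4 and 63.9 for YT shYEATS2 (0.98, SE 0.170, 0.0021) and 52.9 and 54.7 for YT shZZZ3 (0.72, SE 0.169, 0.0204). PHC2, a subunit of the canonical form, rose from 288 and 313 CPM to 639 and 624 for YT shYEATS2 (1.07, SE 0.214, 0.00521), and PHF1, a relative of PHF19, rose there too (0.73, SE 0.226, 0.0421). RBBP7, a histone chaperone subunit, was lower in YT shNT (-0.63, SE 0.163, 0.0334) and rose in YT shYEATS2 (0.71, SE 0.163, 0.0106) and YT shZZZ3 (0.65, SE 0.163, 0.0273). EZH2, the catalytic subunit, passed in none of the 7 contrasts, though it passed over all 6 groups (0.021), with 26.6 and 26.9 CPM for YT shNT and 25.2 and 21.2 for YT shYEATS2. The largest log2 fold changes of EZH2 were 0.69 in YT shZZZ3 (adjusted p = 0.087) and 0.58 in TC shZZZ3 (0.374), both without overlap of the libraries. The rise of PCGF3 for YT shYEATS2 held without any single library, and each of the other calls was lost without 1 or both YT shNT libraries (up to 0.0609 for PHF19 for YT shZZZ3 and 0.199 for RBBP7), those of PHF1 in YT shYEATS2 and of RBBP7 between the lines and in YT shZZZ3 also without either TC shZZZ3 library. The rise of RBBP7 in YT shYEATS2 was lost without any library of its 2 groups (0.059 to 0.0963). With only their groups fitted, the RBBP7 call between the lines (0.184) and those of RBBP7 (0.108) and PCGF3 (0.0932) in YT shZZZ3 were lost.

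Of the 14 Trithorax/MLL genes, all tested, none was called by edgeR in any contrast, with 0 to 2 at an unadjusted p under 0.05, and DESeq2 called 1 of them in YT shYEATS2. Of 20 genes of retinoic acid handling and the CDX family 15 were tested, with 1 higher and 2 lower in YT shYEATS2, 1 lower in YT shZZZ3, 2 higher in TC shZZZ3, and 2 higher and 2 lower in YT than in TC under shNT. These were 20%, 6.67%, 13.3% and 26.7% of the tested list, beside 20.7%, 10%, 1.53% and 9.23% of all genes. The CDX gene CDX2, which acts on mid-cluster HOX genes, read 1.16 and 1.61 CPM for YT shNT and 0.0416 and 0 for YT shYEATS2 (adjusted p = 0.00144), and it was higher in YT shNT than in the TC control, at 0.229 and 0.0956 CPM (0.0141). DHRS3, a retinaldehyde reductase that is itself raised by retinoic acid, read 2.06 and 1.61 CPM for YT shNT, 0.0832 and 0.0516 for YT shYEATS2 (adjusted p = 0.000327) and 0.328 and 0.127 for YT shZZZ3 (0.00282). Fold changes at such counts depend on the prior count of the fit and are not given. CYP26B1, which breaks retinoic acid down, rose from 1.30 and 2.10 CPM for TC shNT to 10.8 and 12.5 for TC shZZZ3 (2.72, SE 0.445, 0.0121). ALDH1A1, which makes it, read 0.0381 and 0.191 CPM for TC shNT and 1.5 and 2.24 for TC shZZZ3 (0.0234), and 0.158 and 0.173 for YT shNT and 2 and 1.75 for YT shYEATS2 (0.00745). CYP26A1 (-1.48, SE 0.327, 0.0159) and the binding protein CRABP2 (-1.33, SE 0.321, 0.0256) were lower in YT than in TC under shNT. The CDX2 and DHRS3 calls in the YT knock-downs held without any single library, while that of CYP26B1 was lost without TC shNT replicate 1 or either TC shZZZ3 library (up to 0.0948). The ALDH1A1 call in TC was lost without 6 libraries, TC shNT replicate 1, YT shNT replicate 1 and any of TC shZZZ3 or YT shYEATS2 (up to 0.166), and that in YT without either YT shNT library (0.0611 and 0.076). The CYP26A1 and CRABP2 calls were lost without TC shNT replicate 1 or either YT shNT library (up to 0.164), that of CRABP2 also with only its groups fitted (0.054), and that of CDX2 between the lines without either YT shNT library (0.0524 and 0.105).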

How the data were processed

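Gene counts were deposited by the authors as raw whole-number counts per gene for each of 12 libraries, and the combined and per-library tables agreed in every cell. Per the study's methods, poly(A)-selected stranded libraries were sequenced in paired-end mode and processed with bcbio-nextgen against hg38 with Ensembl annotation. Those methods name both Hisat2 and Salmon, and which step produced these counts is not given in the sources used here. Coordinates and exon lengths came from GENCODE 44, which held 99.1% of the identifiers. Counts of 18415 genes with a mean of at least 5 were fitted in edgeR 4.0.16 (R 4.3.3) with TMM factors and a quasi-likelihood model of 6 groups (6 residual degrees of freedom, common biological coefficient of variation 0.205). Tests were two-sided, and a gene was called at a Benjamini-Hochberg adjusted p under 0.05 over all genes tested. An adjusted p in the text comes from this fit unless another is named. CPM values are TMM-normalised. Sequencing depth ranged from 17451893 to 29294805 counts, and zero counts are read against a floor of 3 counts, for counting error only. Alternatives were RLE factors, library totals, DESeq2 1.42.0, other filters, fits on the groups of a contrast and a replicate block. Others were removal of a GC trend (a lowess curve for each library) and leaving out each library. The fits were tested on simulated data. The HOX genes and all lists were chosen with earlier results of these data known. One gene of the symbol pattern is not reported here and was left out of every HOX count, sum and median. All 38 others are accounted for, full values are given for those called in at least 1 of 7 contrasts, and from each other list up to 4 called genes per contrast may be named.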

Additional observations from a re-analysis of the deposited data

Results flagged for a closer look

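The effect of a hairpin differed between the TC and YT lines in 4 tests of that difference (an interaction term of the edgeR fit, as YT minus TC on the log2 scale) on the HOX genes described. For shYEATS2 these were HOXC12 (5.04), HOXC10 (1.62) and HOXD13 (-2.04), and for shZZZ3 HOXC12 (2.68). Among them, HOXC12 and HOXD13 under shYEATS2 still passed with any single library left out, and the other 2 did not. With 2 libraries a group no single library could be tested as an outlier.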

How the results depend on the processing

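No called HOX gene changed direction under any alternative. The number of HOX genes called was within 1.5 times the main count in 49 of 71 comparisons outside the leave-one-out fits. The others were as follows. With no filter on low counts TC shYEATS2 gave 1 (HOXC12), and under the filter at a mean of 50 the shZZZ3 difference gave 0. With library totals TC shZZZ3 gave 0. DESeq2 gave 2 for the shZZZ3 difference and 11 over all groups. Fitted on their own groups, TC shZZZ3 gave 0, YT shYEATS2 17, YT shZZZ3 0 and the lines under shNT 0. With the GC trend removed, TC shZZZ3 gave 2, YT shZZZ3 6, the shYEATS2 difference 6, the shZZZ3 difference 2 and the lines under shNT 7. The share of all genes called with the GC trend removed is not given here, so these counts are not read as a result about HOX genes. Leaving out 1 library at a time, where the lone library is assumed to vary like the other groups, gave 0 to 0 in TC shYEATS2, 0 to 1 in TC shZZZ3, 2 to 6 in YT shYEATS2, 0 to 3 in YT shZZZ3, 2 to 5 for the shYEATS2 difference, 0 to 1 for the shZZZ3 difference, 0 to 5 between the lines (0 without either YT shNT library) and 4 to 9 over all groups. The drop without a library follows in part from fewer libraries in the fit.

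Replicate numbers did not pair the libraries, since the correlation of same-numbered deviations ran from -0.44 to 0.90 between groups over 13258 genes. A replicate block gave 0 HOX genes in TC shYEATS2, 1 in TC shZZZ3, 5 in YT shYEATS2, 3 in YT shZZZ3, 3 for the shYEATS2 difference, 1 for the shZZZ3 difference, 5 between the lines and 8 over all groups. The replicate block with the GC trend removed gave 0, 2, 9, 7, 7, 4, 8 and 12 in that order. Shares of all genes called under either block are not given here, so these counts too are not read as a result about HOX genes. HOXA9, HOXB1, HOXD10, HOXD11 and HOXD12 were too low to test at this depth.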
